A study of Mus musculus with 6 samples.

Results

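Proliferating fibroblasts of the cultured mouse choroid are described here. They are the cells that the authors' deposited cell table names Fibroblast proliferating and places in fibroblast sub-cluster 2, and they number 6098 of 25428 cells. The table holds 6 samples of cells from the choroid, the vascular layer behind the retina, of male C57BL/6J mice aged 12 to 16 months. Per the study's methods, retinal pigment epithelium (RPE) and choroid were dissociated with papain and the cells were cultured. The 3 Dram2 wt/wt samples carried the intact gene. The 3 Dram2 ko/ko samples came from a constitutive knockout strain in which CRISPR/Cas9 had removed exon 4 of Dram2, so that no cell type was exempt by design. No other allele or agent was named for either group. RNA was read with the 10x Genomics 3′ v2 chemistry, which counts polyadenylated molecules near their 3′ end by unique molecular identifiers (UMIs). The labels do not say whether a sample was 1 animal or a pool, so p-values measure the spread between these samples. Dram2 ko/ko replicate 3 was the only sample of batch 2 in the labels, so within-batch values are those without it.

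A cell that divides first licenses its replication origins and copies its DNA in S phase under cyclins E and A, then condenses and separates its chromosomes in mitosis under cyclin B and the kinases CDK1, PLK1 and Aurora. E2F transcription factors drive the S phase genes, and the B-MYB, MuvB and FOXM1 factors drive the mitotic genes. Fibroblasts of the choroid lie between its vessels and build its collagen matrix. In culture they re-enter the cell cycle and take on smooth muscle actin fibres. DRAM2 is a lysosomal membrane protein of the family of DNA damage-regulated autophagy modulators.

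The 3 Dram2 wt/wt samples held 895, 1101 and 994 proliferating fibroblasts, and the 3 Dram2 ko/ko samples 457, 1825 and 826. Together these cells carried between 25513797 and 31598341 UMIs per sample, so the summed counts were of like depth although the cells were not. Their median UMI count per cell was 32273, 26923 and 30019 in Dram2 wt/wt, and 55207, 16685 and 32207 in Dram2 ko/ko. Dram2 ko/ko replicate 2 thus had the most and the shallowest cells, and Dram2 ko/ko replicate 1 the fewest and the deepest. Of all Fibroblast proliferating cells, 367 lay outside sub-cluster 2, with a median of 10741 UMIs, and 81 cells of sub-cluster 2 had another type name. Cell identifiers were all distinct and hold no barcode, so barcodes shared between libraries were not counted. No doublets were removed.

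Dram2 itself was present in every library. Its level in the proliferating fibroblasts, as counts scaled to the UMI total of the summed cells (CPM), came to 33.2, 36.9 and 36.0 for Dram2 wt/wt and to 29.9, 26.7 and 28.7 for Dram2 ko/ko. Such a level does not tell apart fewer cells with the RNA from less RNA in each. All Dram2 ko/ko values lay below all Dram2 wt/wt values, but the difference did not pass the test across all genes (fold change -0.32 on the log2 scale, SE 0.08, voom-limma adjusted p = 0.197). Exon 4 of transcript Dram2-201 lies at chr3:106561749-106561816 (GRCm38), and its last exon, which the library reads, ends at chr3:106574845. A 3′ count therefore does not check the deletion or the genotype labels.

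The markers fitted the name of the cells. Top2a, the topoisomerase that untangles sister chromosomes, stood at 406, 367 and 410 CPM in Dram2 wt/wt and 391, 399 and 444 CPM in Dram2 ko/ko. In the Fibroblast cells of sub-cluster 1, the largest fibroblast group with 9727 cells, it was between 8.89 and 11.2 CPM. Mki67, which coats mitotic chromosomes, had a mean of 103 ± 11.0 CPM (SD, n = 6 samples) against 1.06 ± 0.325 CPM. Cenpf, a protein of the kinetochore on which spindle fibres pull, had 173 ± 17.1 CPM against 1.94 ± 0.570 CPM. Ccnb1, the mitotic cyclin B1, had 78.9 ± 4.997 CPM against 1.07 ± 0.304 CPM, with 38.2% of its 3′ sequence shared with other genes. Clspn, the claspin of the replication checkpoint, had 91.8 ± 8.70 CPM against 2.09 ± 0.349 CPM. These genes were higher in all 6 samples, and no sample of 1 group came near the other group. The ratio of the means over 6 samples was 41.5 for Top2a, 44.0 for Clspn, 73.6 for Ccnb1, 89.2 for Cenpf and 96.8 for Mki67. Genes with at least 5% of their 3′ sequence shared have less certain counts: of those named here, Mki67, Cenpf, Ccnb1, Ccna2, Ccnd1, Ccne2, Cdk4, Cdk6, Cdc20, Cks2, Pcna, Rrm2, Tk1, Ctps, Gart, Plk1, Kif20a, Fbxo5, Pbk, Pclaf, H2afz, Stmn1, Hist1h2bc, Hist1h2ap, Lims2, Thbs1, Lamp1 and Cd63. The pseudogenes Gm14143, Gm4246, Rps15-ps2, Gm7808 and Gm9816, named below, are also over this limit.

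**Figure D1:**
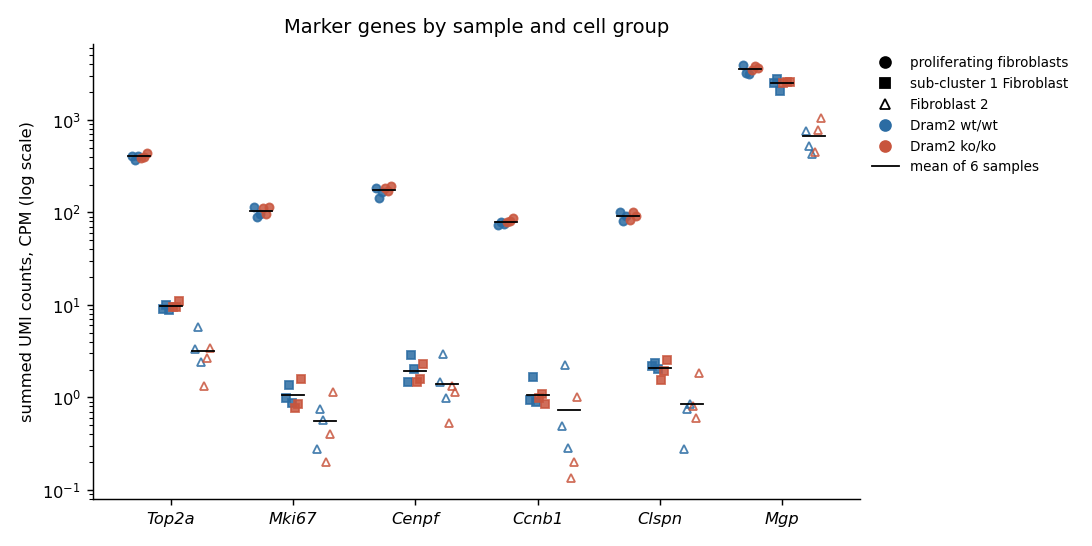
Summed UMI counts in CPM (log scale) of the 6 marker genes, by sample, in proliferating fibroblasts (circles), sub-cluster 1 Fibroblast cells (squares) and Fibroblast 2 cells (triangles), with a line at the mean of 6 samples. Top2a lies between 367 and 444 CPM in the proliferating fibroblasts and between 8.89 and 11.2 CPM in sub-cluster 1, while Mgp is high in both.

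Fibroblast genes stood beside the cycle genes at levels mostly near those of sub-cluster 1. Over the 7 fibroblast markers the median log2 difference of (CPM + 1) was -0.01, with 2 higher and 1 lower in all 6 samples. Mgp, a matrix protein that keeps soft tissue from calcifying, had 3561 ± 326 CPM in the proliferating fibroblasts and 2493 ± 235 CPM in sub-cluster 1, and was higher in 6 of 6 samples. Col1a1, a chain of type I collagen, had 701 ± 103 CPM against 706 ± 94.5 CPM. Dcn, the collagen-binding proteoglycan decorin, had 451 ± 48.9 CPM against 466 ± 46.5 CPM, and 1994 to 3128 CPM in the separate Fibroblast 2 type. Col1a1 and Dcn do not set these cells apart from every other type. Over pooled cells Col1a1 was at 1703 CPM in the deposited Pericyte type against 699 CPM here, and Dcn at 462 CPM in Myeloid against 449 CPM here. Markers of other cell types were mostly low beside the type they mark. The 12 RPE markers summed to between 6.23 and 14.03 CPM in the 6 samples, against 569 CPM in the RPE type, with Rpe65, Tyrp1 and Dct at 0. Most of the sum in the RPE type was the keratin gene Krt18, at 473 CPM. Over pooled proliferating fibroblasts Krt18 was at 4.87 CPM. The 9 myeloid markers summed to between 10.6 and 16.9 CPM in Dram2 wt/wt and between 7.02 and 7.88 CPM in Dram2 ko/ko, against 15187 CPM in the Myeloid type. The 10 endothelial markers, several of which fibroblasts also express, summed to between 368 and 520 CPM against 10277 CPM in the Endothelial type, and the defining Pecam1 was at 0.545 CPM against 643 CPM. The deposited Pericyte type went against its name, with the 6 Schwann cell markers at 1208 CPM and the 7 pericyte markers at 217 CPM, so it is no reference for pericytes. In the proliferating fibroblasts the Schwann cell markers summed to between 4.56 and 5.73 CPM and the pericyte markers to between 79.4 and 102 CPM. There the 6 melanocyte markers summed to at most 0.862 CPM, the 5 photoreceptor markers to at most 2.38 CPM and the 4 T cell markers to at most 0.0784 CPM.

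RNA of cycle genes was not limited to these cells. Over pooled cells Top2a stood at 337 CPM in the type deposited as Pericyte, which is rich in Schwann cell markers, 138 CPM in RPE, 124 CPM in Myeloid and 94.1 CPM in the Fibroblast proliferating cells outside sub-cluster 2. It was at 16.4 CPM in the Endothelial type and 2.90 CPM in Fibroblast 2. Mki67 and Cenpf were higher in the Pericyte type, at 144 and 209 CPM, than in pooled proliferating fibroblasts, at 103 and 173 CPM. Ccnb1 and Clspn were lower there, at 54.2 and 63.4 CPM against 78.8 and 92.1 CPM. The fibroblast gene Mgp stood at 1388 CPM in Myeloid, 311 CPM in Pericyte and 272 CPM in RPE. The part of free RNA or doublets in the cycle gene values of these types was not tested. The lists of 43 S phase and 54 G2/M phase genes named below are those in common use to score cycle phase. In single cells thinned to 8000 UMIs each, 79.2% of 5761 proliferating fibroblasts had a Top2a UMI, 47.4% an Mki67 UMI, 52.4% a Cenpf UMI, 36.3% a Ccnb1 UMI and 47.2% a Clspn UMI. In Fibroblast 2 cells, used as a low reference for free RNA, these shares were 1.83%, 0.466%, 1.05%, 0.505% and 0.505%. They were higher in sub-cluster 1 Fibroblast cells, at 7.35%, 0.907%, 1.55%, 0.863% and 1.61%. A Top2a UMI was found in 5.26% of Endothelial cells. The median depth before thinning was 26401 UMIs in the proliferating fibroblasts and 20754 UMIs in Fibroblast 2. Without thinning, 89.7% of all proliferating fibroblasts had a Top2a UMI. At 8000 UMIs, 535 of the 5761 cells had no UMI of Top2a, Mki67, Cenpf or Ccnb1.

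The first question was whether loss of Dram2 changed how many cells were in this state, since the study asked about proliferation of choroidal cells. The study reported that plated Dram2 ko/ko RPE/choroid cells became confluent sooner than Dram2 wt/wt cells. It found no significant difference in cell type composition. A share of cells at harvest does not measure the rate of growth. Proliferating fibroblasts made up 23.4%, 23.9% and 23.0% of all cells in Dram2 wt/wt and 21.4%, 27.5% and 21.2% in Dram2 ko/ko. The Dram2 ko/ko samples lay on both sides of the Dram2 wt/wt samples. The means were 23.4% ± 0.464 and 23.3% ± 3.56 (SD, n = 3 each), and the exact two-sided permutation p was 1. Within batch 1 the difference turned to 0.955 percentage points in favour of Dram2 ko/ko (exact permutation p = 0.8). Among fibroblast-type cells alone the shares were 24.9%, 27.8% and 24.4% in Dram2 wt/wt and 22.5%, 28.7% and 25.5% in Dram2 ko/ko (exact permutation p = 1, also 1 after adjustment over these 2 comparisons), and within batch 1 the difference was -0.115 percentage points (exact permutation p = 1). With 3 samples against 3 the smallest p that this test allows is 0.1, so no share could have passed 0.05.

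Levels in the proliferating fibroblasts were then set beside those of sub-cluster 1 Fibroblast cells of the same samples. The deposited clusters were built from these same genes, so these differences are a description and were not tested. Over the 7045 genes with a mean of at least 20 CPM in either group, 358 (5.08%) were at least 2-fold higher in the proliferating fibroblasts in all 6 samples, and 9 (0.128%) were at least 2-fold lower in all 6. Without the 2-fold limit, 46.0% of the genes were higher and 33.9% lower in all 6. Of the 358 genes, 149 were on 1 of 12 lists of cell division genes. The median log2 difference of (CPM + 1) over all 7045 genes was 0.04. At an equal depth of 8000 UMIs the proliferating fibroblasts also showed more genes per cell, with medians of 3319 to 3368 genes in the 6 samples against 3136 to 3199.

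The machinery that copies DNA was higher as a whole. All 28 compared genes of origin licensing and the replication fork were higher in all 6 samples, 26 of them at least 2-fold, with a median log2 difference of 2.44. Among the subunits of the MCM helicase, which opens the double helix, Mcm5 had 86.1 ± 4.69 CPM against 7.85 ± 0.929 CPM and Mcm6 125 CPM against 36.8 CPM. Prim1, the primase that starts each new strand, had 79.6 CPM against 4.24 CPM, and Cdc45, which joins the helicase as origins fire, 38.3 CPM against 2.53 CPM. Pcna, the sliding clamp of the polymerases, had 24.2 ± 2.61 CPM against 5.12 ± 0.546 CPM. Mcm2 had 67.5 ± 7.29 CPM against 18.5 ± 1.57 CPM. The groups did not overlap for any of these genes.

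Supply of nucleotides followed the same direction. All 13 compared genes of nucleotide synthesis were higher in all 6 samples, with a median log2 difference of 1.89. Rrm2, the regulated subunit of ribonucleotide reductase, had 577, 590 and 565 CPM in Dram2 wt/wt and 582, 635 and 602 CPM in Dram2 ko/ko, against 61.3 to 79.3 CPM in sub-cluster 1. Tk1, the thymidine kinase of S phase, had 65.1 ± 8.42 CPM against 1.41 ± 0.418 CPM. Genes of purine and pyrimidine synthesis that resting cells also use differed less, with Ctps at 161 CPM against 125 CPM and Gart at 79.6 CPM against 58.3 CPM.

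Most lists of the mitotic machinery had higher medians than the replication lists. All 52 compared genes of the G2/M phase list were higher in all 6 samples, 47 at least 2-fold, with a median log2 difference of 4.13. The medians were 3.68 for 27 genes of the kinetochore and spindle checkpoint, 4.10 for 18 spindle motors and microtubule factors and 4.29 for the 9 cytokinesis genes. They were lower for condensin and cohesin, with 1.30 over 19 genes, 12 of them at least 2-fold higher, and for the anaphase-promoting complex, with 0.56 over 17 genes, 4 at least 2-fold higher and 2 lower in all 6 samples. Outside the S phase and G2/M phase lists, the highest was Ccna2, the cyclin A2 of S phase and mitotic entry, at 153, 164 and 157 CPM in Dram2 wt/wt and 170, 155 and 163 CPM in Dram2 ko/ko against 1.299 to 3.65 CPM. Next came Pbk, a mitotic kinase, with 101 ± 4.77 CPM against 1.302 ± 0.725 CPM, and Knl1, the scaffold of the outer kinetochore, with 68.7 ± 9.98 CPM against 0.545 ± 0.246 CPM. Fbxo5, which restrains the anaphase-promoting complex until mitosis, was at 95.9 to 105 CPM against 0.916 to 2.19 CPM. Pclaf, a partner of the PCNA clamp, was at 271 ± 21.4 CPM against 6.20 ± 1.21 CPM. Cep55, which ends cytokinesis, was at 47.1 to 55.0 CPM against 0.458 to 1.11 CPM. Sgo2a, a shugoshin that protects centromeric cohesion, Esco2, which acetylates cohesin in S phase, and Plk1, the Polo kinase, were at 89.8, 36.6 and 63.9 CPM against 2.00, 0.281 and 1.25 CPM. On the G2/M phase list, the Aurora kinase genes Aurka and Aurkb had 102 and 68.9 CPM against 3.56 and 1.24 CPM, the cyclin gene Ccnb2 85.2 CPM against 5.77 CPM and Cdc20, which activates the anaphase-promoting complex, 197 CPM against 10.4 CPM. Stmn1, which destabilises microtubules, had 25.7 CPM against 5.74 CPM.

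The regulators of the cycle divided by their role. Of the G1 cyclins, Ccnd1 had 276 ± 25.1 CPM against 259 ± 27.8 CPM, so it was about as high in sub-cluster 1, and Ccnd2 was lower in all 6 samples with 1008 ± 139 CPM against 1437 ± 185 CPM. The cyclins of later phases were higher, with Ccne1 at 114 ± 5.30 CPM against 23.5 ± 1.72 CPM and Ccne2 at 49.8 ± 5.46 CPM against 3.03 ± 0.331 CPM. Cdk1, the mitotic kinase, had 369 ± 12.8 CPM against 20.1 ± 2.42 CPM, whereas its relatives of G1, Cdk4 and Cdk6, had 536 and 59.7 CPM against 424 and 59.3 CPM. Among the transcription factors, Foxm1, which drives mitotic genes, had 22.5 ± 3.07 CPM against 1.33 ± 0.256 CPM, and E2f8, a repressing E2F, 23.8 ± 2.26 CPM against 0.958 ± 0.127 CPM. E2f1, an activating E2F, had 56.5 ± 2.57 CPM against 23.8 ± 0.745 CPM, and E2f4 only 54.9 CPM against 48.6 CPM.

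Promoters of the mitotic genes are shown for the letters they share. A pair of short motifs were looked for on both strands in the RefSeq window of 250 bases before to 50 after the gene start (GRCm38.p6): CCAAT, the box bound by NF-Y, and TTTGAA, the core of the cell cycle genes homology region bound by MuvB. The motifs share no letters in the windows printed. Windows were found for 47 of 54 genes of the G2/M phase list and 31 of 43 of the S phase list. Of the 52 windows of the G2/M phase list, 39 (75.0%) held CCAAT, 34 (65.4%) TTTGAA and 27 (51.9%) both. Of all 32851 windows, 37.4% held CCAAT, 17.9% TTTGAA and 6.95% both. Of the 35 windows of the S phase list, 65.7% held CCAAT and 14.3% TTTGAA. Windows of 5 genes are printed 5′ to 3′ on the strand of the gene, with both motifs in capitals in either direction: Cenpf, Cdc20 and Mki67 as mitotic genes with both, Clspn as a replication gene with CCAAT alone and Ccne1 as a cyclin of the G1 to S transition with neither.
Cenpf, chr1:189688037-189688336, minus strand: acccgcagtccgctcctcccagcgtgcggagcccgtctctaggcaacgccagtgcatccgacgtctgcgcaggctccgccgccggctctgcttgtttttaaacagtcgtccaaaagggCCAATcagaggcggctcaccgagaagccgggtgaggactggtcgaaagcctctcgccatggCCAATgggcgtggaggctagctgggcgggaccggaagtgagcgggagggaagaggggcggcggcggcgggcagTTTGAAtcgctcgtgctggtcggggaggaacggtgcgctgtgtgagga
Cdc20, chr4:118437294-118437593, minus strand: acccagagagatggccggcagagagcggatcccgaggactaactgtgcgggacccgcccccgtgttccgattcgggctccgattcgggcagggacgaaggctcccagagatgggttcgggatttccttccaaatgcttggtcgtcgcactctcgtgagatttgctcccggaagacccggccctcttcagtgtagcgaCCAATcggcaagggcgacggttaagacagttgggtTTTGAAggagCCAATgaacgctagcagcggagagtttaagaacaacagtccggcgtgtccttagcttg
Mki67, chr7:135716330-135716629, minus strand: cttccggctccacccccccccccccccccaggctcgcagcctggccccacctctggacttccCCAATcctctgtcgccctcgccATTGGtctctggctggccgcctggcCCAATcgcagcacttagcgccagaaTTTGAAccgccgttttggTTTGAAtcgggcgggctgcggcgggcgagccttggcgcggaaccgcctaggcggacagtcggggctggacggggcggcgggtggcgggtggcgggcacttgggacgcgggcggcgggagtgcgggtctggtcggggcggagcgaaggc
Clspn, chr4:126556730-126557029, plus strand: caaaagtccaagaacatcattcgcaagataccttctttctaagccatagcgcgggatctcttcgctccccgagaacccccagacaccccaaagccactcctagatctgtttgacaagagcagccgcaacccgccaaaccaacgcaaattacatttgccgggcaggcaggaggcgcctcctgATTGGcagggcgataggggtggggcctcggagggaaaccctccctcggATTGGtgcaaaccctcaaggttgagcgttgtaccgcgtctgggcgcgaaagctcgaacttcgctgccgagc
Ccne1, chr7:38107441-38107740, minus strand: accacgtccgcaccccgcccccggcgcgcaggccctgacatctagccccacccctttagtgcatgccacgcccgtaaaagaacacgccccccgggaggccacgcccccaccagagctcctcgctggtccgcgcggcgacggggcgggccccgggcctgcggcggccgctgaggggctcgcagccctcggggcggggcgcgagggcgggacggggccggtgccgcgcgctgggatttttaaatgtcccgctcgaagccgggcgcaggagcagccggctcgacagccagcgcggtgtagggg
The Cenpf window holds CCAAT at 2 places and TTTGAA once, and the Mki67 window holds CCAAT at 3 places and TTTGAA at 2. Among the G2/M phase genes the 27 with both motifs had a median log2 difference of 4.21 from sub-cluster 1, with a range from 0.83 to 5.90, the 9 with CCAAT alone 2.12, the 6 with TTTGAA alone 4.13 and the 5 with neither 4.06. A match of letters is a description and not a site of binding, and genes of 1 list share the way they were chosen.

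The 9 genes at least 2-fold lower in all 6 samples were Hist1h1c, Hist1h2bc, Hist3h2a, Hmox1, Ddit3, Crct1, Lims2, Trnp1 and Trim17. The lowest was Hist1h1c, a linker histone, at 61.9, 77.5 and 60.3 CPM in Dram2 wt/wt and 63.4, 68.7 and 62.8 CPM in Dram2 ko/ko against 274 to 292 CPM in sub-cluster 1. Hist1h2bc, a histone H2B, had 115 ± 24.4 CPM against 392 ± 80.3 CPM, and Hist3h2a, a histone H2A, 17.8 ± 1.19 CPM against 40.4 ± 1.77 CPM. Of the 15 genes of the histone list only 6 reached the level to be compared. Most of these went the other way, with 4 at least 2-fold higher, 1 at least 2-fold lower and a median log2 difference of 1.46. Hist1h1b, another linker histone, had 35.1 ± 8.95 CPM against 1.09 ± 0.191 CPM, and the variant histones H2afz, H2afx and H2afv had 35.1, 179 and 246 CPM against 9.08, 80.5 and 71.5 CPM. Most replication histones lack a poly(A) tail, which this library needs, and the part of this in the histone counts was not tested. Hmox1, the heme oxygenase of the oxidative stress response, had 891 ± 177 CPM against 2208 ± 412 CPM, and Ddit3, a transcription factor of endoplasmic reticulum stress, 38.8 ± 5.28 CPM against 85.5 ± 9.11 CPM. Crct1 had 80.5 ± 44.0 CPM against 220 ± 79.2 CPM, with values from 42.7 to 155 CPM in the proliferating fibroblasts that overlapped the range from 126 to 334 CPM in sub-cluster 1. Lims2 of focal adhesions, Trnp1 and Trim17 were at 13.97, 14.1 and 11.5 CPM against 35.0, 32.2 and 25.1 CPM. Cemip, a gene of hyaluronan breakdown, was lower in all 6 samples but not 2-fold in each, at 28.5 CPM against 60.6 CPM.

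The contractile and lysosome lists were slightly lower. Of 10 contractile genes, 9 were lower in all 6 samples, with a median log2 difference of -0.37: Acta2, smooth muscle actin, had 8821 ± 429 CPM against 12273 ± 1045 CPM, and Myh11, smooth muscle myosin, 27.9 ± 7.33 CPM against 49.1 ± 12.3 CPM. Of 24 lysosome genes, 22 were lower in all 6 samples and none higher in all 6, with a median of -0.24: Ctsd, the protease cathepsin D, had 725 ± 44.4 CPM against 989 ± 83.8 CPM, and Lamp1 of the lysosomal membrane 884 ± 43.1 CPM against 1120 ± 39.4 CPM. Within the family of Dram2, Tmem150a had 41.1 ± 2.01 CPM against 73.3 ± 2.75 CPM, Dram2 31.9 ± 4.13 CPM against 36.4 ± 4.60 CPM and Dram1 18.2 ± 1.33 CPM against 15.4 ± 1.69 CPM. The autophagy list was nearer 0, with a median of -0.10. Of its 14 compared genes 7 were lower in all 6 samples and 2 higher, beside 33.9% lower and 46.0% higher over all 7045 genes. Among those lower, Gabarap, which lines autophagosome membranes, had 942 ± 98.4 CPM against 1389 ± 129 CPM.

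Matrix genes and the p53 pathway had medians near 0, while several inhibitors of the cycle were higher. Of 21 matrix genes 3 were higher and 10 lower in all 6 samples, with a median log2 difference of -0.06, and Thbs1, an adhesive glycoprotein, had 1906 ± 195 CPM against 2815 ± 335 CPM while Col6a3 had 50.6 ± 6.20 CPM against 30.4 ± 2.15 CPM. Of 18 p53 pathway genes 3 were higher and 10 lower in all 6, with a median of -0.07. Cdkn1a, the p21 inhibitor of cyclin-dependent kinases and a p53 target, had 999 ± 110 CPM against 1033 ± 112 CPM, a ratio between 0.926 and 0.987 in the 6 samples. Of 8 compared inhibitors and pocket proteins 5 were higher and 3 lower in all 6 samples, with a median of 0.62: Cdkn1b (p27) was at 22.7 ± 2.96 CPM against 12.3 ± 1.42 CPM and Cdkn2c (p18) at 36.0 ± 3.32 CPM against 10.0 ± 1.08 CPM. Growth factor receptors and immediate early genes had medians of -0.02 each.

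**Figure D2:**
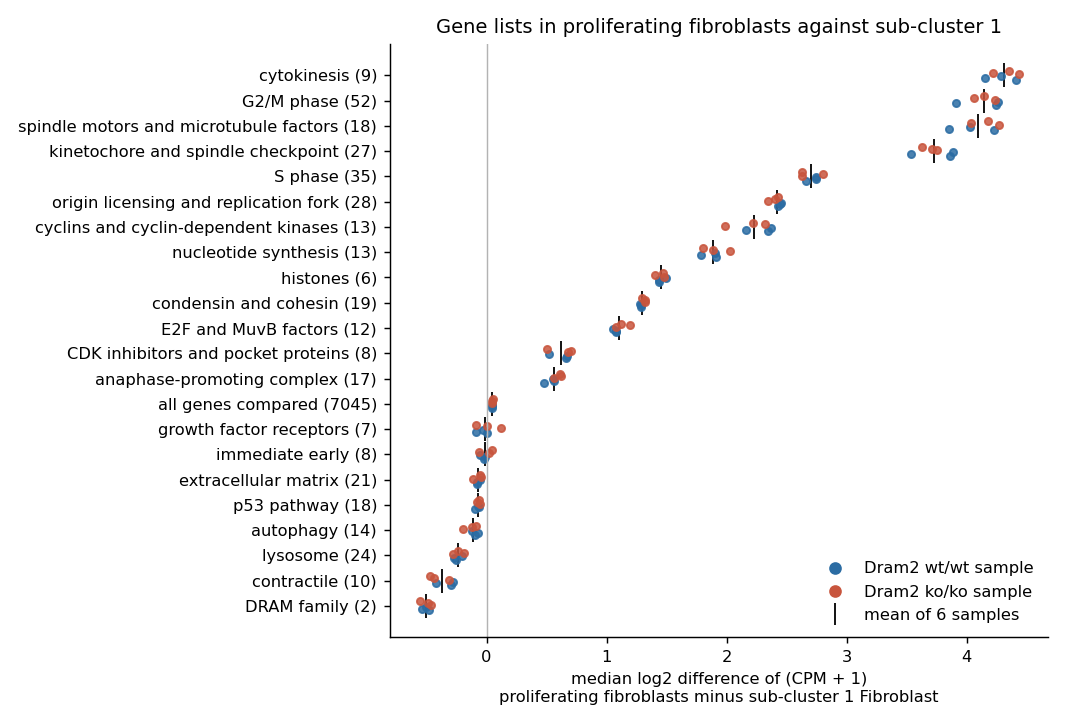
Median log2 difference of (CPM + 1) between proliferating fibroblasts and sub-cluster 1 Fibroblast cells for each gene list (number of compared genes in brackets), 1 point per sample and a bar at the mean of 6 samples. The G2/M phase list has an overall median of 4.13, the contractile list of -0.37 and all 7045 genes of 0.04, and the samples of either genotype lie close together.

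The cells differed among themselves in how far they had gone in the cycle. In the 5761 cells thinned to 8000 UMIs, the median was 28 UMIs of the S phase list, with the 10th and 90th percentiles at 15 and 42, and 54 UMIs of the G2/M phase list, with percentiles at 26 and 97. Sub-cluster 1 cells had medians of 5 and 10 UMIs. More than 40 UMIs of the 2 lists together were found in 95.9% of the proliferating fibroblasts and in 0.442% of sub-cluster 1 cells. For more than 20 UMIs the shares were 99.98% and 21.5%. The deposited clusters were built from these same genes, so this split is a description. Within a sample the counts of the 2 lists were almost unrelated across cells (Pearson correlation between -0.15 and -0.02, a description over cells of 1 library and equal depth). The S fraction, which is the S phase list's share of the UMIs of both lists, had a median of 0.333 and ran from 0.183 at the 10th percentile to 0.537 at the 90th. Cuts at 0.267 and 0.407 divide the cells into tertiles, and 1094 of 5761 cells lay within 0.02 of a cut. Tertile cuts fall where cells lie, so this count does not show whether the range holds a gap.

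**Figure D3:**
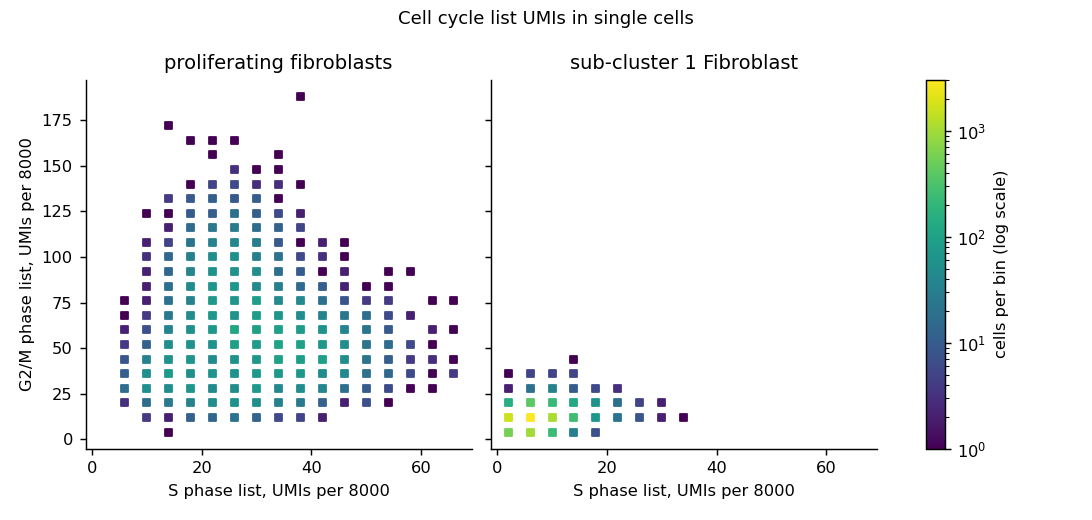
UMIs of the S phase list (x axis) and of the G2/M phase list (y axis) in single cells thinned to 8000 UMIs, as the number of cells per bin (log colour scale), for proliferating fibroblasts and sub-cluster 1 Fibroblast cells. The proliferating fibroblasts centre on 28 and 54 UMIs, and sub-cluster 1 cells on 5 and 10 UMIs.

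Genes outside both lists differed along this fraction, which is a description since the cells were ordered by genes of the same cells. Of 7083 genes compared, 30 (0.424%) were at least 2-fold higher in the upper tertile than in the lower in all 6 samples, 15 of them outside the lists, and 52 (0.734%) were at least 2-fold higher in the lower tertile, 28 outside the lists. On the S phase side Ccne1, the cyclin E1 of S phase entry, had 215 CPM in the upper tertile (199.9 to 249.6 over the samples) and 34.9 CPM in the lower (28.8 to 40.6). Dna2, a nuclease and helicase that trims Okazaki fragments, had 21.7 CPM against 3.11 CPM, Wdhd1 of the replication fork 38.9 CPM against 12.4 CPM, and the linker histone gene Hist1h1b 44.5 CPM against 12.7 CPM. Slfn9, Lmcd1, Zfp367 and Zgrf1 were at 85.5, 78.2, 39.4 and 20.1 CPM against 17.5, 26.4, 13.97 and 6.92 CPM. All of these were higher in the upper tertile in 6 of 6 samples.

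On the mitotic side, Aspm of the spindle poles had 75.4 CPM in the lower tertile and 13.98 CPM in the upper, and Cdkn3, a phosphatase that acts on cyclin-dependent kinases, 113 CPM and 20.8 CPM. Plk1 had 109 CPM and 21.6 CPM, Ccnb1 125 CPM and 30.6 CPM, and Kif20a, the kinesin of cytokinesis, 132 CPM and 32.0 CPM. Arl6ip1, which shapes the endoplasmic reticulum, had 901 CPM and 223 CPM, Knstrn, a spindle and kinetochore protein, 92.9 CPM and 25.99 CPM, and Parpbp 28.0 CPM and 6.46 CPM. By list, and leaving out genes of the S phase and G2/M phase lists themselves, all 14 licensing and fork genes were higher in the upper tertile in 6 samples (median log2 difference 0.67), and all 6 cytokinesis genes were lower (median -1.37), with a median of -0.03 over all genes compared. Cells of all tertiles kept the fibroblast genes: Dcn had 479 CPM in the upper and 382 CPM in the lower, and Col1a1 708 and 732 CPM. Cdkn1a was highest in the middle tertile with 1051 CPM, against 928 CPM in the upper and 841 CPM in the lower. Median UMIs per cell before thinning were 16613 to 55843 in the upper tertile and 17562 to 55220 in the lower across samples. Within a sample the lower tertile was somewhat deeper, except in Dram2 ko/ko replicate 1. The widest gap was in Dram2 wt/wt replicate 2, with 30246 UMIs in the lower and 27595 in the upper. At 8000 UMIs the lower tertile also had more genes per cell in each sample, with 3393 against 3336 in that replicate.

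Some genes peaked between the ends. By deciles of the S fraction, Ccne1 was lowest in decile 1 with 30.1 CPM and highest in decile 10 with 248 CPM, and Ccna2 ran the other way from 229 CPM to 96.6 CPM. Tk1 was at 48.2 CPM in decile 1, highest in decile 7 with 95.2 CPM and back at 52.2 CPM in decile 10. Rrm2, which is on the S phase list, was highest in decile 8 with 768 CPM. Top2a, of the G2/M phase list, held 179 CPM in decile 10 and 602 CPM in decile 1, so it was present at a high level throughout, whereas Cenpf went from 444 CPM to 20.6 CPM.

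**Figure D4:**
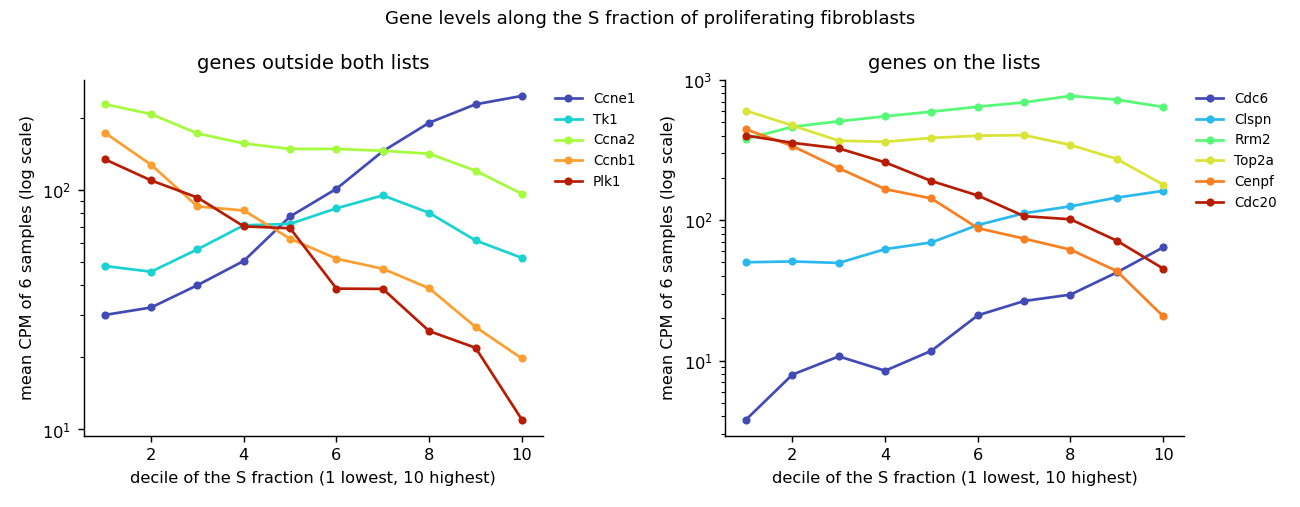
Mean CPM of 6 samples (log scale) along deciles of the S fraction (1 lowest, 10 highest) in proliferating fibroblasts, for genes outside the S phase and G2/M phase lists (left) and on them (right). Ccne1 goes from 30.1 to 248 CPM and Plk1 from 135 to 11.0 CPM, while Tk1 is highest in decile 7 with 95.2 CPM.

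The make-up of the cycle was then compared between genotypes. The G2/M phase list took 0.726%, 0.693% and 0.697% of the UMIs per cell in Dram2 wt/wt and 0.748%, 0.736% and 0.749% in Dram2 ko/ko. The groups did not overlap, and the means were 0.705% ± 0.0180 and 0.744% ± 0.00717 (SD, n = 3 each; exact permutation, two-sided, p = 0.1, which is the smallest possible with 3 against 3, and 0.4 after adjustment over 4 measures). Within batch 1 the difference was 0.0364 percentage points (exact permutation p = 0.2). The S phase list took 0.344%, 0.354% and 0.345% in Dram2 wt/wt and 0.342%, 0.366% and 0.350% in Dram2 ko/ko, with overlapping groups (exact permutation p = 0.7). The mean S fraction was 0.340, 0.358 and 0.352 against 0.334, 0.353 and 0.339 (exact permutation p = 0.4), and 34.5% ± 2.32 against 31.3% ± 2.42 of the cells lay in the upper tertile (exact permutation p = 0.3), a difference of -3.20 points that was -0.498 points with cells thinned to 5000 UMIs. None of the 4 measures could pass 0.05 with this number of samples.

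Gene by gene, loss of Dram2 was compared on the counts summed over the proliferating fibroblasts of each sample. Of 17976 genes tested, 88 (0.490%) were called at an adjusted p under 0.05 by voom-limma, 1 (0.00556%) higher and 87 (0.484%) lower in Dram2 ko/ko. Most of the 88 share sequence with other genes or are pseudogenes: 52 were pseudogenes, 10 were ribosomal protein genes and 19 others shared at least 5% of their 3′ sequence with other genes. Counts of genes with shared sequence are less certain. Of all 17976 genes tested, 10806 were neither pseudogenes nor shared at this limit. The 5 lowest by fold were the pseudogenes Gm14143, Gm4246, Rps15-ps2, Gm7808 and Gm9816. Rps15-ps2 had 50.8, 63.0 and 64.3 CPM in Dram2 wt/wt and 21.9, 13.8 and 7.60 CPM in Dram2 ko/ko, and Gm7808 81.0, 95.7 and 105.7 CPM and 33.0, 24.8 and 12.0 CPM. The other 3 were at most at 1.39 CPM in any sample. The count of 88 rested on single samples: leaving out replicate 2 or replicate 3 of Dram2 wt/wt gave 0 calls by voom-limma, with 956 and 920 genes at an unadjusted p under 0.05, and leaving out replicate 2 of Dram2 ko/ko gave 0 calls, with 1077. The same counts gave 47 calls with edgeR's quasi-likelihood test and 322 with DESeq2. Leaving out replicate 1 of Dram2 ko/ko gave 292 calls by voom-limma, and the count was 195 within batch 1, where 24 were higher.

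Of the called genes, 6 were neither pseudogenes nor shared in sequence. Cxcl3, a chemokine that draws neutrophils (chr5:90786103-90789600, GRCm38), was the gene that rose, from 11.2, 15.2 and 10.8 CPM in Dram2 wt/wt to 20.8, 21.9 and 26.7 CPM in Dram2 ko/ko (fold change 0.90 on the log2 scale, SE 0.15, voom-limma adjusted p = 0.0393). Every Dram2 ko/ko value lay above every Dram2 wt/wt value. Myeloid cells can also express this chemokine. The 9 myeloid markers in these same sums lay between 10.6 and 16.9 CPM in Dram2 wt/wt and were lower in Dram2 ko/ko, between 7.02 and 7.88 CPM, and their part in the result was not tested. Mt1, a metallothionein that binds zinc and copper (chr8:94179082-94180327), fell from 231, 277 and 266 CPM to 167, 158 and 189 CPM (log2 fold change -0.60, SE 0.10, voom-limma adjusted p = 0.0392). Snrpd2, a core protein of spliceosomal particles (chr7:19149722-19153542), fell from 33.2, 38.2 and 40.4 CPM to 20.9, 14.7 and 11.6 CPM, and Kctd17 (chr15:78428564-78439303) from 5.15, 5.34 and 4.87 CPM to 2.39, 2.34 and 2.14 CPM. Mir3076 and Mir3091 also fell, by 1.23 and 1.21 on the log2 scale, but these short features lie inside Tkt and Rps21 on the same strand, so their counts cannot be told apart from those genes. By edgeR's quasi-likelihood test, Cxcl3 (adjusted p = 0.0512), Mir3091 (adjusted p = 0.0564) and, by a narrow margin, Mt1 did not pass, and the other 3 of the 6 did. When only unshared genes that are not pseudogenes were tested, none of 10806 passed by voom-limma, with 368 at an unadjusted p under 0.05. The fold changes hardly moved there: Cxcl3 had 0.90, Mt1 -0.60, Snrpd2 -1.29 and Kctd17 -1.16 on the log2 scale, with voom-limma adjusted p = 0.0943 for Cxcl3 and Mt1 and 0.0687 for Snrpd2 and Kctd17.

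Transcript length moved with these calls. The longest transcript of the called genes had a median of 468 bases, against 2761 bases over all genes tested, and 67 of the 88 (76.1%) were under 1000 bases, against 18.7% of all genes tested. Among 33 unshared genes under 600 bases with a mean of at least 5 CPM, the 3 Dram2 ko/ko samples had a median log2 difference from the Dram2 wt/wt mean of -0.23, -0.59 and -0.08, and 78.8% were lower by the fit. It was between -0.07 and 0.13 for the 203 genes from 600 to under 1000 bases. In sub-cluster 1 the same 33 genes had -0.15, -0.68 and -0.12, in cells of the same libraries. Dram2 ko/ko replicate 2, with the shallowest cells, had the largest shift. However, of the 87 genes called lower 75 were lowest in Dram2 ko/ko replicate 3, the sample of batch 2, and 11 in Dram2 ko/ko replicate 2. The like share over all genes tested was not counted. Without Dram2 ko/ko replicate 3, 85 of the 88 genes were still called by voom-limma. The part of length in the calls was not tested, except by an alternative chosen after seeing the data. There 14 genes were called when only transcripts of 1000 bases or more were tested. For depth, cells thinned to an equal UMI count gave 187 calls among 13960 genes tested, all lower in Dram2 ko/ko. Of these, 75 were among the 88. Leaving out the highest-UMI cells gave 100 calls, 82 of them among the 88. The part of depth was not tested further.

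**Figure D5:**
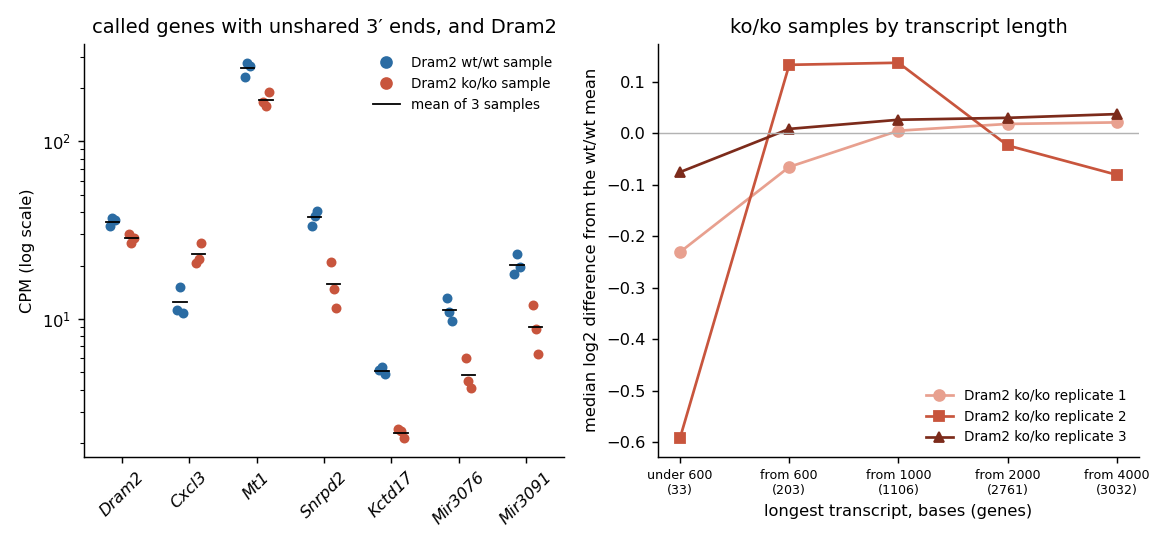
Left, CPM (log scale) by sample, with lines at the means of 3 samples, for Dram2 and the 6 called genes with unshared 3′ ends. Right, median log2 difference of each Dram2 ko/ko sample from the Dram2 wt/wt mean by length class of the longest transcript (number of genes in brackets), each class running up to the start of the next; genes under 600 bases are lowest in Dram2 ko/ko replicate 2, at -0.59.

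No gene of the cell division lists was called in either direction by voom-limma on all samples. Over all genes tested the called share was 0.490%, at which short lists may hold none. None of the 54 genes of the G2/M phase list passed (smallest voom-limma adjusted p = 0.543), with 42 of 54 above 0, 2 higher and 2 lower at an unadjusted p under 0.05 and a median log2 fold change of 0.06, beside a median of -0.01 and 48.4% above 0 over all genes tested. Cenpa, the centromeric histone, had 206, 203 and 195 CPM in Dram2 wt/wt and 225, 241 and 227 CPM in Dram2 ko/ko (fold change 0.20 on the log2 scale, SE 0.07, voom-limma adjusted p = 0.543). Hmmr, a spindle assembly factor, had 161, 128 and 141 CPM and 166, 168 and 166 CPM (adjusted p = 0.692 by voom-limma). Both were higher in every Dram2 ko/ko sample, but neither passed over all genes. Cks2, a small partner of CDK1 with 26.8% of its 3′ sequence shared, went the other way, with 34.7, 32.0 and 38.3 CPM and 32.8, 28.5 and 24.8 CPM.

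On the replication side, none of the 43 S phase genes passed, with 24 above 0 and a median of 0.01. Hells, a chromatin remodeller that is needed for DNA methylation, had the smallest p with 94.8, 105 and 110 CPM in Dram2 wt/wt and 88.4, 77.6 and 91.0 CPM in Dram2 ko/ko (fold change -0.27 on the log2 scale, voom-limma adjusted p = 0.391). Of 31 licensing and fork genes 22 lay above 0, with Mcm6 at 117, 119 and 124 CPM against 131, 130 and 131 CPM and no overlap between the groups (voom-limma adjusted p = 0.922). The lists of cyclins, inhibitors, E2F factors, nucleotide synthesis, condensin and cohesin, and cytokinesis held no gene at an unadjusted p under 0.05. In the anaphase-promoting complex, Anapc13 had 82.2, 94.7 and 95.1 CPM against 60.2, 41.1 and 72.8 CPM (voom-limma adjusted p = 0.175). Anapc13 was called under 2 of 19 alternatives, DESeq2 (adjusted p = 0.0128) and within batch 1. Of 15 histone genes 7 were lower and 1 higher at an unadjusted p under 0.05, with a median of -0.25, and none passed: Hist1h2ap, whose 3′ sequence is fully shared, had 2.20, 2.51 and 2.72 CPM against 1.37, 0.475 and 0.775 CPM (voom-limma adjusted p = 0.0683). Hist1h2ap was called under 3 of 17 alternatives, with the lowest adjusted p of 0.00328 by DESeq2. Its longest transcript has 482 bases, and the part of transcript length in the histone values was not tested. Over all genes tested, 1242 (6.91%) were at an unadjusted p under 0.05.

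Lists tied to DRAM2 or to the fibroblast state held no called gene either, beside 0.490% called over all genes tested. Lists of this size may hold none at that share. Of 25 lysosome genes 15 lay above 0 with a median of 0.01, and Cd63, a lysosomal tetraspanin with 50.6% of its 3′ sequence shared, had 396, 382 and 480 CPM in Dram2 wt/wt and 556, 464 and 484 CPM in Dram2 ko/ko. Of 23 autophagy genes 12 lay above 0 with a median of 0.01, and of 20 p53 pathway genes 11 with a median of 0.01, the stress sensor Sesn2 having the smallest p with 26.6, 28.8 and 27.6 CPM against 21.7, 20.9 and 24.4 CPM (voom-limma adjusted p = 0.255). Of 25 matrix genes 10 lay above 0 with a median of -0.09. Dcn had 404, 395 and 442 CPM in Dram2 wt/wt and 467, 468 and 529 CPM in Dram2 ko/ko, with no overlap between the groups (log2 fold change 0.23, SE 0.09, voom-limma adjusted p = 0.500). The contractile, receptor and immediate early lists had medians of -0.05, -0.05 and 0.10. Dram1, a p53-induced relative of Dram2, had 18.2, 17.4 and 17.9 CPM against 19.4, 19.9 and 16.3 CPM. Over all lists and other genes, 2070 (11.5%) of the genes tested had groups that did not overlap.

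Whether the genotype effect in the proliferating fibroblasts differed from that in sub-cluster 1 Fibroblast cells was tested with an interaction term. None of 19148 genes passed by voom-limma, with 708 at an unadjusted p under 0.05 and a smallest adjusted p of 0.103, and none by edgeR, with 701 at an unadjusted p under 0.05. In sub-cluster 1, whose cells came from the same libraries, 58 of 18994 genes (0.305%) were called, among them 44 of the 87 called lower in the proliferating fibroblasts. All 87 had a log2 fold change below 0 in sub-cluster 1 as well. A call in 1 group alone shows no difference between them: the log2 fold change of Kctd17 was -1.16 in the proliferating fibroblasts and -1.03 in sub-cluster 1, where it was not called, and that of Rps15-ps2, called in both, -2.17 and -2.21. Cxcl3 stood at 32.2, 20.7 and 11.7 CPM in Dram2 wt/wt and 28.5, 25.1 and 16.2 CPM in Dram2 ko/ko in sub-cluster 1, so its groups overlapped there, and its difference between the cell groups did not pass (interaction log2 0.76, unadjusted p = 0.0122, voom-limma adjusted p = 0.999). The count of called interactions was 2 without Dram2 ko/ko replicate 1 (Ccl2 and Ivl) and 3 without Dram2 ko/ko replicate 2 (Actg2, Cxcl10 and Dynap).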

How the data were processed

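The authors deposited UMI counts per gene and cell, not normalised, for 52636 genes and 25428 cells. Per the submitters' processing notes and the study's methods, Cell Ranger 3.1.0 was run against GRCm38 with exons only. The annotation release and the filters on cells are not given in the sources used here. The authors also deposited a cell table, whose type names and sub-clusters they obtained by clustering with Seurat. All deposited cells were used.

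UMI counts were summed over the proliferating fibroblasts of each sample and tested with voom-limma (limma 3.58.1, edgeR 4.0.16, R 4.3.3), the method the study names, with filterByExpr, TMM factors and no covariate. Adjustment over all genes tested followed Benjamini and Hochberg, and genes were called at an adjusted p under 0.05. The step was tested on simulated data. The interaction with sub-cluster 1 Fibroblast cells kept the sample as a factor. CPM divides a count by the UMIs of its sum. Differences from sub-cluster 1 are means over samples of log2 (CPM + 1), over genes with at least 20 CPM in either group. Cells were thinned at random to 8000 UMIs, which left out 195 Dram2 wt/wt and 142 Dram2 ko/ko cells. Shares and cycle measures were compared by exact two-sided permutation tests. Shared 3′ sequence is the percentage of 31-base words in a gene's last 400 bases that occur in transcripts of other genes (GENCODE M21, GRCm38). It and the position could be had for 52371 and 52489 genes. Promoters are RefSeq windows of GRCm38.p6.

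Alternatives were edgeR's quasi-likelihood test, DESeq2 1.42.0, other scalings and filters, other sets of cells or genes, a replicate block and leaving out each sample. Members and gene lists were chosen with earlier results of these data known. Genes were named by rule: a set of cycle and fibroblast genes, up to 5 called genes per direction with the largest fold changes and no overlap (all, and unshared genes alone), the 2 genes of each list with the smallest p, and the genes most different from sub-cluster 1 or between tertiles in all 6 samples. Others were added after their values were seen.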

Additional observations from a re-analysis of the deposited data

How the results depend on the processing

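The 88 called genes depended on the setting. The count was 47 with edgeR's quasi-likelihood test, 322 with DESeq2, 200 without a filter on low counts, 187 with cells thinned to 8000 UMIs, 14 with transcripts of 1000 bases or more (chosen after seeing the data), 0 of 10806 with unshared genes alone and 0 with the replicate block, where 1017 genes were at an unadjusted p under 0.05. It ranged from 0 to 292 when 1 sample was left out. The cause was not tested. Other settings gave 72 to 113 genes. The 11 named genes that were called kept their direction in all 191 values under the alternatives and stayed called in 117 of them. Of 872 values of the 47 named genes that were not called, 5 were called, 3 of Hist1h2ap and 2 of Anapc13. The replicate numbers share only a number: deviations of same-numbered samples correlated at 0.07, -0.27 and 0.10. Called interactions ranged from 0 to 3 when 1 sample was left out and were 0 under the other settings.

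The difference in share of proliferating fibroblasts (Dram2 ko/ko minus Dram2 wt/wt) changed sign with the cell filter, from -0.110 to 0.160 percentage points of all cells and from -0.165 to 0.190 of fibroblast-type cells. Without 1 sample it ranged from -2.17 to 0.955 and from -1.73 to 1.35 points. The difference in the S phase list ranged from -0.00133 to 0.0106 percentage points. The G2/M phase list stayed higher in Dram2 ko/ko in every setting run (0.0328 to 0.0492 without 1 sample), and the mean S fraction stayed lower. The exact tests could not pass 0.05 with 3 samples per genotype, and 3′ counts do not resolve near-identical genes.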
